A study of Mus musculus with 8 samples.

Results

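The mitotic, kinetochore and spindle checkpoint genes are 44 genes picked by symbol from a table of read counts for 55414 genes, and each of the 44 symbols matched exactly 1 row. All 44 passed the filter on low counts that left 24356 genes for testing. The counts come from RNA sequencing of brain tumor and naive brain tissue of mice in a model of supratentorial ependymoma, a glial tumor of the forebrain. The labels give the ZFTA-RELAfusion genotype to all libraries, naive and vehicle ones included, and list the name of the compound as the cell line of each. MRX-2843 is a small molecule that inhibits the kinases MERTK and FLT3. Tumor-bearing mice, chosen by MRI, were assigned at random. The vehicle naive brain and vehicle tumor groups received the vehicle, while MRX-2843 tumor and the naive brain of the same treatment received 50 mg/kg of the compound by mouth, once a day for 5 days, with tissue taken 1 hour after the last dose. Each of the 4 groups holds 2 libraries, called duplicates in the column names, and the labels give no age, sex or strain. They do not say whether 2 duplicates came from 2 mice, or whether naive brain came from mice that carried a tumor, so p-values measure only the spread between these libraries, which may be technical.

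These genes build and control cell division. CDK1 with the A and B cyclins drives a cell into mitosis, and the Aurora and Polo-like kinases assemble the spindle. The kinetochore, a protein assembly on the centromere, ties each chromosome to spindle microtubules. The spindle checkpoint holds back the anaphase-promoting complex until all chromosomes are attached, after which securin and the B cyclins are destroyed, separase frees the sister chromatids, and the cell divides. Most of the genes are transcribed mainly in G2 and mitosis, so that in adult brain, where few cells divide, their transcripts are scarce, while a growing tumor contains many.

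Library totals ran from 51150569 to 112938462 counts, and a count of 0 allows up to 3 counts, or 0.0266 to 0.0587 in CPM, that is, relative to the size of each library, a limit that covers counting error only. All other CPM values also carry the TMM factor of the library. The share of counts from mitochondrially encoded genes was 3.26 to 3.37% in vehicle tumor and 14.7 to 18.5% in the other 6 libraries. The female-specific X-linked Xist had an unscaled level of 502 to 771 CPM with MRX-2843 and of 0.461 to 2.75 CPM with vehicle (4 libraries each), and the Y-linked Ddx3y had 0 counts in every MRX-2843 library and 2168 to 6717 in the vehicle libraries. All MRX-2843 columns carry the number 909, which the labels do not explain, and the vehicle columns 914 or 915, so treatment, sex-linked expression and that number cannot be told apart. In bulk tissue, fewer dividing cells, less RNA per dividing cell and a smaller share of tumor tissue in the sample cannot be told apart.

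Most of the mitotic genes were most abundant in vehicle tumor. Between vehicle tumor and vehicle naive brain, 41 of the 44 rose, 1 fell (Anln) and 2 did not pass the test (Cdc25b and Bub3), with a median log2 fold change of 3.72. Of all 24356 genes tested, 29.3% were higher and 30.8% lower in vehicle tumor, with a median of -0.03. MRX-2843 tumor held less: 42 of the 44 were lower than in vehicle tumor (median -2.76), where 29.8% of all genes were lower (median of all genes 0.03), and Anln and Cdc25b were higher, as 30.6% of all genes were. Against MRX-2843 naive brain, 29 of the 44 were still higher in MRX-2843 tumor and 15 did not pass (median 1.56), where 12.4% of all genes were higher. The first 2 of these comparisons share the vehicle tumor libraries and are not independent of each other. A change is named where edgeR's quasi-likelihood test gave a Benjamini-Hochberg adjusted p under 0.05 over all genes tested. Log2 fold changes are given ± SE with 2 libraries a group.

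**Figure D1:**
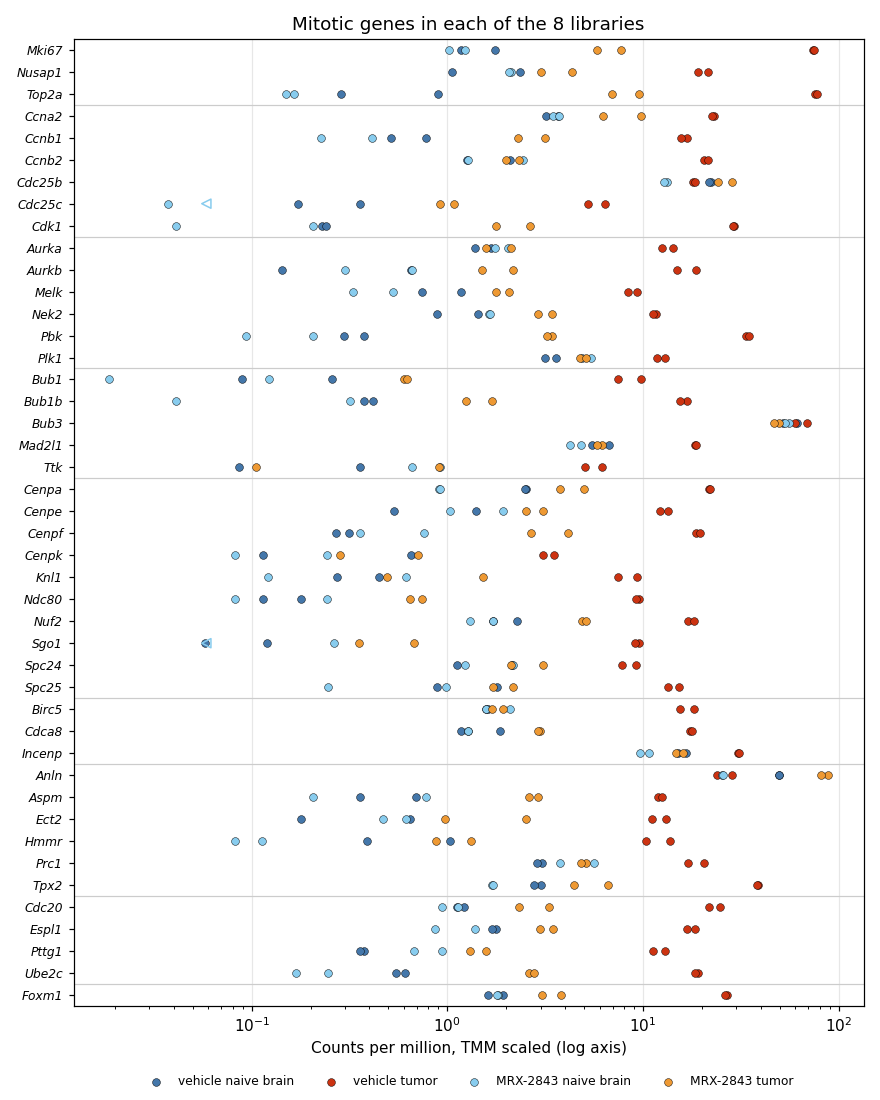
Level of each of the 44 genes in the 8 libraries, in TMM-scaled CPM on a log axis, with 1 point per library, colours for the 4 groups, and grey lines between role groups. An open triangle marks a library with 0 counts, drawn at the value of 3 counts. Both vehicle tumor libraries lie above the other 6 for 41 genes, and Anln, Bub3 and Cdc25b are the other 3.

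Both vehicle tumor libraries were above the other 6 libraries for 41 of the 44 genes, against 32% of all genes tested. Both MRX-2843 tumor libraries were below both vehicle tumor libraries for 42 genes, against 40.4% of all genes. They were above all 4 naive brain libraries for 30 of the 44, against 16.8% of all genes.

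Mki67, Top2a and Nusap1 are markers and structural proteins of dividing chromosomes. Mki67, whose protein Ki-67 coats mitotic chromosomes and is the usual histological marker of proliferation, was at 1.18 and 1.74 CPM in vehicle and 1.03 and 1.24 in MRX-2843 naive brain, then 74.3 and 75.1 in vehicle and 7.74 and 5.84 in MRX-2843 tumor. Top2a encodes topoisomerase II alpha, which untangles sister DNA, and was at 0.287 and 0.894 CPM in vehicle and 0.164 and 0.150 in MRX-2843 naive brain, then 75.5 and 77.5 in vehicle and 9.51 and 6.95 in MRX-2843 tumor. For both genes the groups did not overlap between tumor and naive brain, and MRX-2843 tumor lay between naive brain and vehicle tumor. Top2a had the largest log2 fold change of all 44 genes in vehicle tumor against naive brain (7.02 ± 0.28, adjusted p = 8.5e-12) and also in MRX-2843 tumor against MRX-2843 naive brain (5.72 ± 0.35, adjusted p = 3.8e-08). The vehicle tumor rise of Top2a was 6.42 without vehicle naive brain library 1 and 8.05 without library 2. In MRX-2843 tumor Mki67 was at 9.08% and Top2a at 10.8% of the vehicle tumor mean. Nusap1, a microtubule-binding protein of the spindle, was at 1.06 and 2.35 CPM in vehicle and 2.11 and 2.06 in MRX-2843 naive brain, then 19.2 and 21.5 in vehicle and 3.02 and 4.35 in MRX-2843 tumor. Its MRX-2843 tumor libraries lay above all naive libraries, while the difference from MRX-2843 naive brain did not pass (0.82 ± 0.30, adjusted p = 0.062). It passed without vehicle naive brain library 1 (0.82, adjusted p = 0.018) or 2 (0.82, adjusted p = 0.018), and also with DESeq2 (adjusted p = 0.043), without the filter on low counts (0.005), with a filter of CPM at least 1 in 2 libraries (0.044) and with only the groups compared (0.049).

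Of the cyclins, CDK1 and its phosphatases, 5 of 6 rose in vehicle tumor and the same 5 were lower in MRX-2843 tumor than in vehicle tumor. Cdk1, the kinase that triggers mitosis, was at 0.230 and 0.238 CPM in vehicle and 0.0410 and 0.206 in MRX-2843 naive brain, then 29.1 and 29.0 in vehicle and 2.64 and 1.77 in MRX-2843 tumor. Both tumor groups lay above every naive library. Cdk1 rose by 6.95 ± 0.34 in vehicle tumor, differed by -3.72 ± 0.27 between the tumors, and remained above MRX-2843 naive brain by 3.87 ± 0.37. Ccnb1 and Ccnb2 encode B cyclins, partners of CDK1. Ccnb2 was at 2.08 and 1.27 CPM in vehicle and 1.27 and 2.43 in MRX-2843 naive brain, then 20.5 and 21.5 in vehicle and 1.99 and 2.33 in MRX-2843 tumor, so that MRX-2843 tumor fell within the range of the naive libraries (0.18 ± 0.30, adjusted p = 0.75). Ccnb1 went from 0.410 and 0.225 in MRX-2843 naive brain to 3.15 and 2.29 in the tumor of that treatment (3.19 ± 0.34, adjusted p = 8.5e-06), and was at 16.8 and 15.7 in vehicle tumor. Whether the 2 cyclins differ was not tested. Ccna2, encoding cyclin A2, which acts from S phase to early mitosis, rose by 2.72 ± 0.21 in vehicle tumor to 23.0 and 22.4 CPM and was 9.78 and 6.26 in MRX-2843 tumor. Cdc25c, a phosphatase that activates CDK1, was at 0.172 and 0.358 CPM in vehicle and 0 and 0.0375 in MRX-2843 naive brain, then 5.23 and 6.38 in vehicle and 0.914 and 1.08 in MRX-2843 tumor. It was scarce in every group, with 0 and 4 counts in MRX-2843 naive brain. Its log2 value against that group (5.24 ± 0.70, adjusted p = 6.2e-05) rests on these counts. Without MRX-2843 naive brain library 2 it was 9.09, a fitted value against a library with 0 counts, which is no bound.

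All 6 mitotic kinases rose in vehicle tumor and all 6 were lower in MRX-2843 tumor. Pbk, a kinase active in mitosis, had the highest level per length of the 44 genes in vehicle tumor, 19.2 CPM per kilobase of exon. It was at 0.373 and 0.298 CPM in vehicle and 0.205 and 0.0937 in MRX-2843 naive brain, then 33.7 and 35.0 in vehicle and 3.41 and 3.24 in MRX-2843 tumor. The tumor libraries lay above every naive library in both treatments, and Pbk was higher in MRX-2843 tumor than in MRX-2843 naive brain by 4.65 ± 0.29, adjusted p = 4.1e-08. Plk1, the Polo-like kinase of spindle assembly and mitotic exit, was at 3.60 and 3.17 CPM in vehicle and 4.90 and 5.45 in MRX-2843 naive brain, then 11.8 and 13.0 in vehicle and 4.78 and 5.14 in MRX-2843 tumor. Aurka, the Aurora kinase of centrosomes and spindle poles, was at 1.39 and 1.67 CPM in vehicle and 1.74 and 2.05 in MRX-2843 naive brain, then 12.5 and 14.2 in vehicle and 2.11 and 1.59 in MRX-2843 tumor. For these 2 kinases MRX-2843 tumor overlapped MRX-2843 naive brain (-0.06 ± 0.20, adjusted p = 0.88 for Plk1 and -0.05 ± 0.26, adjusted p = 0.94 for Aurka). Aurkb, the Aurora kinase of the chromosomal passenger complex, was higher in MRX-2843 tumor than in MRX-2843 naive brain (2.05 ± 0.49, adjusted p = 0.0061), a difference that did not pass without MRX-2843 naive brain library 2 (1.49, adjusted p = 0.095) or MRX-2843 tumor library 2 (1.78, adjusted p = 0.055). Melk, a kinase of proliferating and progenitor cells, was higher by 2.12 ± 0.36. Nek2, a kinase that separates centrosomes, was higher by 0.95 ± 0.27, adjusted p = 0.02, which did not pass without MRX-2843 naive brain library 1 (0.95) or 2 (0.95) or MRX-2843 tumor library 1 (0.83).

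Of the 5 spindle checkpoint genes, 4 rose in vehicle tumor and all 5 were lower in MRX-2843 tumor than in vehicle tumor. Bub1, a checkpoint kinase of the kinetochore, was at 0.258 and 0.0894 CPM in vehicle and 0.123 and 0.0187 in MRX-2843 naive brain, then 7.43 and 9.82 in vehicle and 0.598 and 0.624 in MRX-2843 tumor. Bub1b encodes BUBR1, a part of the complex that inhibits the anaphase-promoting complex, and was at 0.373 and 0.417 CPM in vehicle and 0.0410 and 0.319 in MRX-2843 naive brain, then 16.7 and 15.4 in vehicle and 1.69 and 1.25 in MRX-2843 tumor. Both genes had MRX-2843 tumor libraries above all naive libraries and at 7.08 and 9.14% of the vehicle tumor mean. Bub1b was higher than in MRX-2843 naive brain by 2.77 ± 0.45, or 5.10 without MRX-2843 naive brain library 2. Libraries 1 and 2 of that group held 2 and 34 counts. Mad2l1, which encodes the checkpoint protein MAD2, was at 6.67 and 5.51 CPM in vehicle and 4.80 and 4.26 in MRX-2843 naive brain, then 18.4 and 18.7 in vehicle and 6.15 and 5.80 in MRX-2843 tumor. Ttk, the checkpoint kinase MPS1, was at 0.0861 and 0.358 CPM in vehicle and 0.656 and 0.919 in MRX-2843 naive brain, then 5.04 and 6.18 in vehicle and 0.105 and 0.911 in MRX-2843 tumor. The difference between MRX-2843 tumor and MRX-2843 naive brain did not pass for either gene (0.41 ± 0.17, adjusted p = 0.11 for Mad2l1 and -0.64 ± 0.71, adjusted p = 0.6 for Ttk). The 2 Ttk libraries of MRX-2843 tumor held 6 and 54 counts. Without the library with 54 counts Ttk was lower than in MRX-2843 naive brain (-2.89, adjusted p = 0.031), and its difference from vehicle tumor went from -3.45 ± 0.73 to -5.73.

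All 10 centromere and kinetochore genes rose in vehicle tumor and all 10 were lower in MRX-2843 tumor, while 5 of the 10 were higher in MRX-2843 tumor than in MRX-2843 naive brain. Of the 4 subunits of the NDC80 complex, which grips the microtubule, 3 passed in the last comparison. Ndc80 was at 0.115 and 0.179 CPM in vehicle and 0.0820 and 0.244 in MRX-2843 naive brain, then 9.52 and 9.19 in vehicle and 0.738 and 0.641 in MRX-2843 tumor. Spc24 was at 1.12 and 2.15 CPM in vehicle and 1.23 and 2.17 in MRX-2843 naive brain, then 7.77 and 9.18 in vehicle and 2.11 and 3.07 in MRX-2843 tumor. Spc25 was at 0.890 and 1.79 CPM in vehicle and 0.246 and 0.984 in MRX-2843 naive brain, then 15.3 and 13.4 in vehicle and 1.71 and 2.16 in MRX-2843 tumor. Spc24 in MRX-2843 tumor overlapped the naive libraries and did not pass (0.58 ± 0.37, adjusted p = 0.3). Ndc80 was higher than in MRX-2843 naive brain by 1.93 ± 0.46, adjusted p = 0.0059, and by 3.04 without MRX-2843 naive brain library 2, but did not pass when only the groups compared were fitted (2.02, adjusted p = 0.16). Nuf2 was higher by 1.71 ± 0.23, adjusted p = 5.7e-05. Spc25 was higher by 1.53 ± 0.45, adjusted p = 0.023, but this did not pass without MRX-2843 naive brain library 1 (0.97) or without either tumor library of that treatment (1.68 without the first and 1.35 without the second), and reached 2.96 without MRX-2843 naive brain library 2.

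Sgo1 encodes shugoshin, which guards centromeric cohesion, and was at 0.0574 and 0.119 CPM in vehicle and 0 and 0.262 in MRX-2843 naive brain, then 9.54 and 9.09 in vehicle and 0.352 and 0.675 in MRX-2843 tumor. It had the largest difference between the tumors (-4.17 ± 0.63, adjusted p = 3.5e-05), and MRX-2843 tumor was at 5.51% of the vehicle tumor mean. Knl1, the kinetochore scaffold that recruits BUB proteins, was at 0.273 and 0.447 CPM in vehicle and 0.615 and 0.122 in MRX-2843 naive brain, then 9.32 and 7.43 in vehicle and 1.53 and 0.489 in MRX-2843 tumor. One of the MRX-2843 tumor libraries of Knl1 lay within the range of naive brain and the other above it (1.60 ± 0.65, adjusted p = 0.096), and the difference passed without MRX-2843 naive brain library 1 (3.03) or MRX-2843 tumor library 2 (2.23). Cenpe, a kinesin motor that moves chromosomes to the spindle equator, was at 1.41 and 0.536 CPM in vehicle and 1.93 and 1.03 in MRX-2843 naive brain, then 13.4 and 12.2 in vehicle and 3.09 and 2.53 in MRX-2843 tumor. Cenpk, a subunit of the inner kinetochore, was at 0.115 and 0.656 CPM in vehicle and 0.0820 and 0.244 in MRX-2843 naive brain, then 3.09 and 3.53 in vehicle and 0.281 and 0.708 in MRX-2843 tumor. Against MRX-2843 naive brain Cenpe (0.96 ± 0.38, adjusted p = 0.089) and Cenpk (1.51 ± 0.79, adjusted p = 0.2) did not pass, nor did Sgo1 (1.68 ± 0.69, adjusted p = 0.1). Cenpe passed without vehicle naive brain library 1 (0.96) or 2 (0.97) or MRX-2843 naive brain library 1 (1.45). Sgo1 passed without MRX-2843 naive brain library 2 (8.13, also fitted against a library with 0 counts). The lower level of Cenpk in MRX-2843 than in vehicle tumor (-2.73 ± 0.75, adjusted p = 0.0057) was lost when MRX-2843 tumor library 1 was left out (-2.22, adjusted p = 0.06). Its rise in vehicle tumor went from 3.10 ± 0.77 to 4.83 without vehicle naive brain library 2. Cenpf, a large protein of the outer kinetochore, rose by 6.03 ± 0.37 in vehicle tumor and was above MRX-2843 naive brain by 2.71 ± 0.34 in MRX-2843 tumor. Cenpa, the histone variant that marks centromeres, rose by 3.12 ± 0.20 and was above by 2.26 ± 0.22.

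The chromosomal passenger complex corrects faulty attachments. Its scaffold gene Incenp was at 15.1 and 16.6 CPM in vehicle and 10.8 and 9.64 in MRX-2843 naive brain, then 30.7 and 31.1 in vehicle and 14.8 and 16.0 in MRX-2843 tumor, and Birc5, encoding survivin, was at 1.58 and 1.61 CPM in vehicle and 2.09 and 1.58 in MRX-2843 naive brain, then 18.3 and 15.5 in vehicle and 1.69 and 1.92 in MRX-2843 tumor. Incenp was already plain in naive brain, and MRX-2843 tumor overlapped vehicle naive brain while lying above MRX-2843 naive brain by 0.59 ± 0.12, adjusted p = 0.0024. Birc5 rose by 3.41 ± 0.24 in vehicle tumor, and its MRX-2843 tumor libraries lay within the range of the naive libraries (-0.01 ± 0.24, adjusted p = 1). Cdca8, which encodes borealin, rose by 3.53 ± 0.25 in vehicle tumor and was above MRX-2843 naive brain by 1.21 ± 0.25 in MRX-2843 tumor.

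Among spindle and cytokinesis genes, Tpx2, which activates Aurora A on the spindle, was at 3.01 and 2.77 CPM in vehicle and 1.68 and 1.71 in MRX-2843 naive brain, then 38.6 and 38.1 in vehicle and 6.65 and 4.45 in MRX-2843 tumor. Its MRX-2843 tumor libraries lay between naive brain and vehicle tumor (1.71 ± 0.20, adjusted p = 1.5e-05 against MRX-2843 naive brain). Prc1, which bundles the microtubules of the central spindle, was at 3.04 and 2.88 CPM in vehicle and 3.75 and 5.63 in MRX-2843 naive brain, then 17.1 and 20.5 in vehicle and 5.12 and 4.82 in MRX-2843 tumor. In MRX-2843 tumor Prc1 lay within the range of MRX-2843 naive brain (0.07 ± 0.21, adjusted p = 0.89). Aspm, a spindle pole protein, rose by 4.54 ± 0.47 in vehicle tumor and was above MRX-2843 naive brain by 2.63 ± 0.47 in MRX-2843 tumor. The hyaluronan and spindle protein gene Hmmr rose by 4.08 ± 0.42 and was above by 3.41 ± 0.52. Ect2, the exchange factor that positions the cleavage furrow, rose by 4.86 ± 0.53. Its difference from MRX-2843 naive brain (1.71 ± 0.50, adjusted p = 0.021) did not pass without MRX-2843 naive brain library 1 (1.89) or 2 (1.5) or MRX-2843 tumor library 1 (0.88).

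The 4 genes of anaphase all rose in vehicle tumor and were all lower in MRX-2843 tumor. Cdc20, which activates the anaphase-promoting complex, was at 1.12 and 1.22 CPM in vehicle and 0.944 and 1.13 in MRX-2843 naive brain, then 24.7 and 21.8 in vehicle and 2.32 and 3.31 in MRX-2843 tumor. Ube2c, the ubiquitin-conjugating enzyme of that complex, was at 0.545 and 0.611 CPM in vehicle and 0.246 and 0.169 in MRX-2843 naive brain, then 19.2 and 18.5 in vehicle and 2.60 and 2.77 in MRX-2843 tumor. For both, MRX-2843 tumor lay above every naive library and far below vehicle tumor, and the difference from MRX-2843 naive brain was 1.42 ± 0.24 for Cdc20 and 3.76 ± 0.29 for Ube2c. Pttg1, encoding securin, the inhibitor of separase, was at 0.373 and 0.358 CPM in vehicle and 0.944 and 0.675 in MRX-2843 naive brain, then 11.3 and 13.0 in vehicle and 1.30 and 1.59 in MRX-2843 tumor. Its MRX-2843 tumor libraries were above all naive libraries, but the difference did not pass (0.86 ± 0.30, adjusted p = 0.05), though it did without MRX-2843 naive brain library 1 (1.10, adjusted p = 0.043). Espl1, encoding separase, was above MRX-2843 naive brain by 1.49 ± 0.25. Foxm1, the transcription factor that switches on many genes of G2 and mitosis, was at 1.62 and 1.92 CPM in vehicle and 1.83 and 1.80 in MRX-2843 naive brain, then 26.7 and 26.2 in vehicle and 3.06 and 3.81 in MRX-2843 tumor. It rose by 3.90 ± 0.20, adjusted p = 1.5e-10, and in MRX-2843 tumor was at 13.0% of the vehicle tumor mean and above MRX-2843 naive brain by 0.92 ± 0.19, adjusted p = 0.0026.

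Fold changes against naive brain rest on few naive counts, and leaving out 1 library moved several that still passed by over 1.5 times. Without vehicle naive brain library 1 the vehicle tumor rise was 4.67 for Aurkb, 6.57 for Bub1, 4.58 for Cenpe, 2.33 for Cenpk, 6.06 for Ect2, 4.95 for Hmmr and 3.97 for Ttk. Without vehicle naive brain library 2 it was 6.85 for Aurkb, 5.06 for Cdc25c, 4.22 for Ect2, 4.26 for Nusap1, 7.30 for Sgo1, 4.01 for Spc25 and 6.0 for Ttk. Their values with all libraries were 5.39 ± 0.50 for Aurkb, 5.61 ± 0.57 for Bub1, 3.72 ± 0.40 for Cenpe, 4.45 ± 0.54 for Cdc25c, 3.58 ± 0.31 for Nusap1, 6.70 ± 0.75 for Sgo1, 3.42 ± 0.44 for Spc25 and 4.66 ± 0.79 for Ttk. The direction was the same in each of these fits. Against MRX-2843 naive brain without its library 2, Cdk1 was 5.68, Pbk 4.01, Aspm 1.82 and Bub1 2.29, and without its library 1 Aspm was 3.73 and Bub1 4.91, beside 3.42 ± 0.68 for Bub1 with all libraries. Bub1 did not pass there when only the groups compared were fitted (3.18, adjusted p = 0.084). Cenpe, Knl1 and Sgo1 passed there without the filter on low counts (adjusted p = 0.011 for Cenpe, 0.0037 for Knl1 and 0.0055 for Sgo1). Pttg1 passed with library totals, DESeq2 size factors or a filter of CPM at least 1 in 2 libraries (adjusted p = 0.037, 0.044 and 0.04). Between the tumors, without MRX-2843 tumor library 1, Ect2 was -3.62, Knl1 -4.09 and Ttk -2.62, beside -2.79 ± 0.46 for Ect2 and -3.05 ± 0.60 for Knl1 with all libraries, and Cenpk was -3.57 without MRX-2843 tumor library 2.

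**Figure D2:**
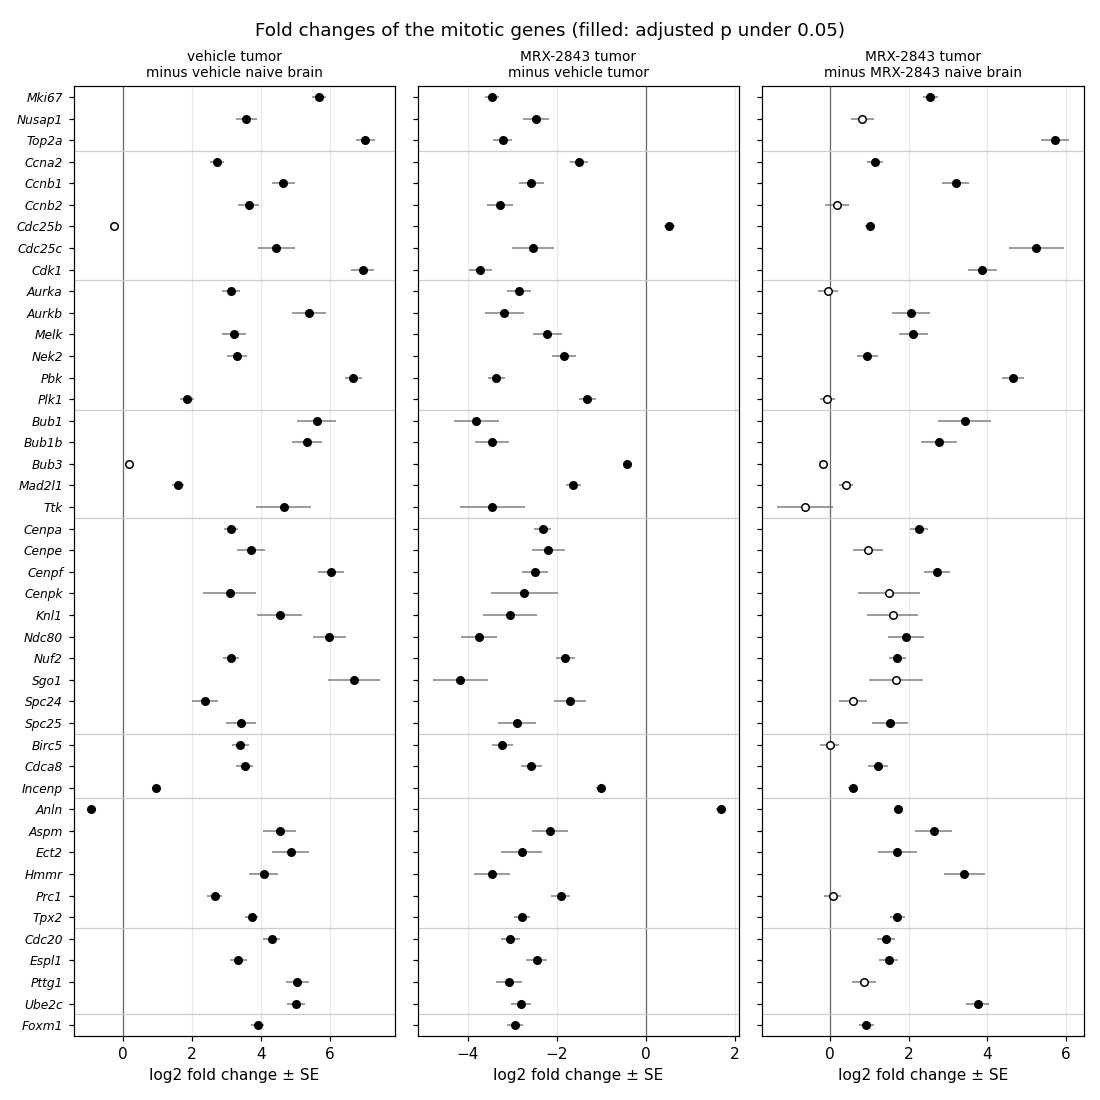
Log2 fold change ± SE of the 44 genes in 3 comparisons, 1 panel each, from 2 libraries a group, with filled points where the adjusted p was under 0.05. In the first panel 41 genes lie to the right and Anln to the left, in the second 42 lie to the left, and in the third 29 filled points lie to the right.

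Anln, Cdc25b and Bub3 did not follow the other 41. Anln, at chromosome 9, 22332012 to 22389188 (GRCm38), encodes anillin, which organises the contractile ring in cytokinesis and in mouse is also made by myelinating oligodendrocytes. It was at 49.6 and 49.5 CPM in vehicle and 25.5 and 25.6 in MRX-2843 naive brain, then 24 and 28.5 in vehicle and 87.8 and 80.9 in MRX-2843 tumor. The 4 groups did not overlap, except that vehicle tumor and MRX-2843 naive brain did, and the highest group was MRX-2843 tumor. Anln fell in vehicle tumor by 0.92 on the log2 scale (adjusted p = 3.5e-07), was higher in MRX-2843 than in vehicle tumor by 1.68 ± 0.09, adjusted p = 3.2e-10, and was above MRX-2843 naive brain by 1.72 ± 0.09, adjusted p = 8.2e-09. The summed level of 8 oligodendrocyte markers was 7424 to 7487 CPM in vehicle naive brain, 487 to 501 in vehicle tumor, 7539 to 7611 in MRX-2843 naive brain and 14097 to 14573 in MRX-2843 tumor, with none of the 8 at 0. All 8 fell in vehicle tumor and all 8 were higher in MRX-2843 tumor than in each of the groups it was compared with. In MRX-2843 naive brain, where Anln lay below its level in vehicle naive brain (-0.96 ± 0.09, adjusted p = 2.1e-06), 4 of the 8 markers were lower and 3 higher. The part of oligodendrocytes in the Anln values was not tested.

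Cdc25b, at chromosome 2, 131186949 to 131198497, encodes a phosphatase that activates CDK1 at the entry into mitosis. It was at 22.2 and 21.7 CPM in vehicle and 13.3 and 12.8 in MRX-2843 naive brain, then 18.1 and 18.4 in vehicle and 24.3 and 28.6 in MRX-2843 tumor. Vehicle tumor was below vehicle naive brain in both libraries, but the difference did not pass (-0.27 ± 0.12, adjusted p = 0.06). It passed without MRX-2843 tumor library 1 (-0.27, adjusted p = 0.049), with a filter of CPM at least 1 in 2 libraries (adjusted p = 0.04) and with only the groups compared (adjusted p = 0.047). With library totals in place of TMM scaling it was -0.01, adjusted p = 0.94. MRX-2843 tumor had the highest values, above vehicle tumor by 0.53 ± 0.12, adjusted p = 0.00098 and above MRX-2843 naive brain by 1.02 ± 0.12, adjusted p = 1.6e-05. With library totals the first of these was 0.31. Bub3, at chromosome 7, 131560222 to 131571895, encodes a checkpoint protein that brings BUB1 and BUBR1 to kinetochores. Its level was 61.1 and 52.2 CPM in vehicle and 55.8 and 53.1 in MRX-2843 naive brain, then 59.6 and 69.0 in vehicle and 49.8 and 46.8 in MRX-2843 tumor. The groups lay close together. Bub3 had the highest level per length of the 44 genes in naive brain, 8.09 CPM per kilobase of exon in vehicle and 7.77 in MRX-2843 naive brain, and 9.18 in vehicle tumor. The difference between vehicle tumor and naive brain did not pass (0.18 ± 0.09, adjusted p = 0.1). It passed with library totals in place of TMM scaling (0.44, adjusted p = 0.00064), and without vehicle naive brain library 1 (0.30) or vehicle tumor library 1 (0.28). Bub3 was lower in MRX-2843 than in vehicle tumor by 0.41 on the log2 scale (adjusted p = 0.0013), and its log2 value was -0.64 with library totals.

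The order of the 44 genes by level per length differed between the tissues. In vehicle naive brain, after Bub3, came Cdc25b (5.89 CPM per kilobase of exon), Anln (5.47), Incenp (3.66) and Plk1 (1.54). In vehicle tumor the order was Pbk, Ccnb2 (13.7), Cdc20 (12.5), Bub3 and Top2a (8.49). MRX-2843 tumor had the same leading 5 genes as naive brain, headed by Anln (9.31) and Cdc25b (7.09). These levels use the exon length of GENCODE M21, which may differ from the annotation behind the counts.

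How much of the vehicle tumor level MRX-2843 tumor held varied among the 41 genes that rose. It ran from 5.51% of the vehicle tumor mean (Sgo1) to 49.7% (Incenp), with a median of 14.5%. With the naive brain of the same treatment taken off both, the excess of MRX-2843 tumor was a median of 10.1% of the excess of vehicle tumor, from -5.18% for Ttk to 34.1% for Incenp. Across the 44 genes the log2 fold change of tumor against naive brain in MRX-2843 libraries went with that in vehicle libraries, 2 comparisons with no library in common (Pearson's r = 0.592, Spearman's rho = 0.623). This describes 44 genes of 1 process that share the libraries within each comparison, and gene abundance enters both values.

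**Figure D3:**
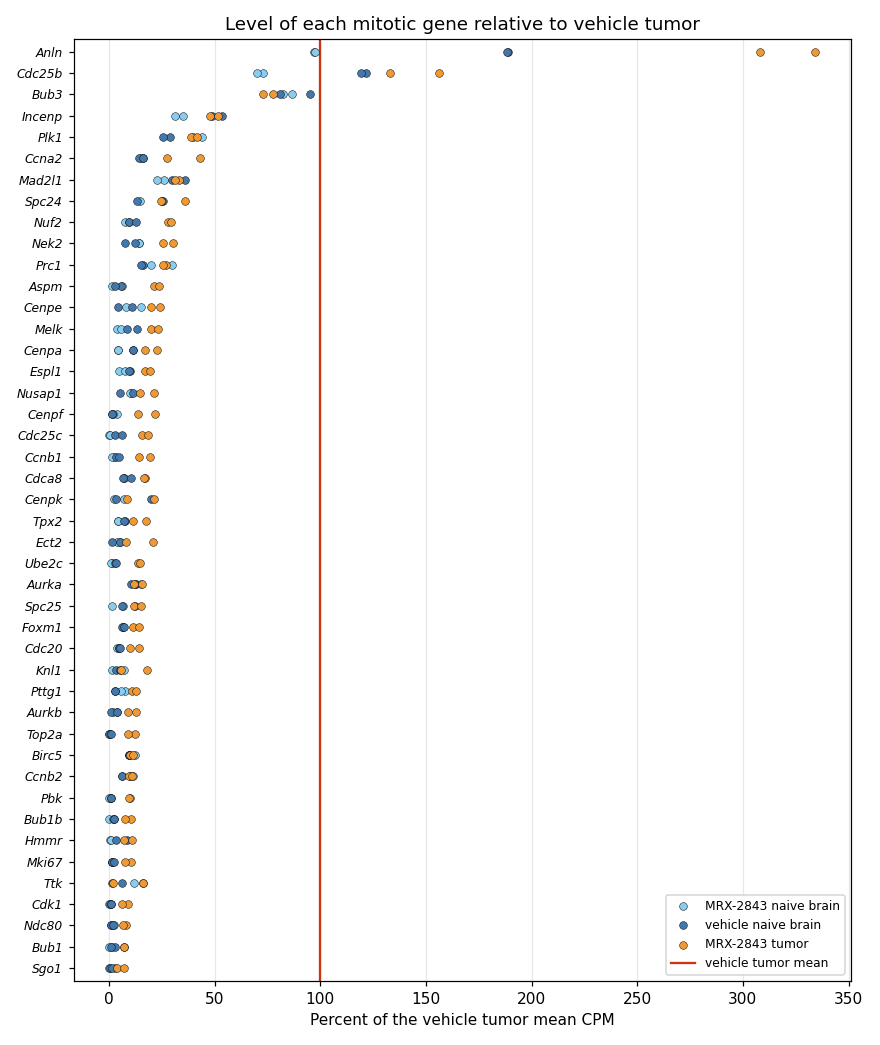
Each library of the other 3 groups as a percent of the vehicle tumor mean CPM, for the 44 genes in order of the MRX-2843 tumor mean, with the vehicle tumor mean as a line at 100. Anln and Cdc25b lie above 100 in MRX-2843 tumor, Bub3 at 75.1 on average, and the means of the other 41 run from 5.51 to 49.7.

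Between the naive groups, 12 of the 44 genes were lower with MRX-2843 than with vehicle, where 11.7% of all genes were lower. Another 3 were higher, where 9.78% of all genes were. Cenpa (-1.46 ± 0.22), Hmmr (-2.79 ± 0.53), Cdc25b (-0.75 ± 0.12), Incenp (-0.64 ± 0.12) and Anln (-0.96 ± 0.09) were lower and passed whichever library was left out, though Hmmr moved to -1.91 without vehicle naive brain library 1. Cenpa was at 2.53 and 2.49 CPM in vehicle and 0.903 and 0.919 in MRX-2843 naive brain. Top2a, Ccnb1, Cdc25c, Tpx2, Pbk, Ube2c and Melk also passed as lower, and Plk1, Prc1 and Pttg1 as higher, but each of these 10 lost its call without 1 or another single library. Without vehicle naive brain library 2 the values were -0.89 for Top2a, -2.72 for Cdc25c, -0.76 for Melk and 0.53 for Plk1, none of which passed. Without MRX-2843 naive brain library 2 Ccnb1 (-0.65), Tpx2 (-0.78), Pbk (-0.71), Ube2c (-1.23) and Prc1 (0.34) did not pass, and the library left in that group had 0 counts of Cdc25c. Pttg1 did not pass without MRX-2843 naive brain library 1 (0.88). All 10 also lost their call when only the naive groups were fitted. Their levels were low, at or under 5.63 CPM in every naive library. Erythroid marker genes also differed between the naive groups, with 4 of 4 lower in MRX-2843 (summed level 668 to 717 CPM in vehicle and 53.8 to 54.6 in MRX-2843 naive brain, none at 0). Neuron markers differed as well, with 3 of 10 higher and 6 lower, and their summed level was 8848 to 9065 CPM in vehicle and 4848 to 4875 in MRX-2843 naive brain. Slc17a7, the vesicular glutamate transporter of excitatory neurons, was at 1698 and 1671 CPM in vehicle and 152 and 148 in MRX-2843 naive brain, and Gad2, an enzyme of GABA synthesis in inhibitory neurons, at 81.8 and 79.3 against 238 and 251. These 2 genes were chosen after their values were seen. The part of these cell types in the mitotic gene values was not tested.

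Set against vehicle naive brain in place of MRX-2843 naive brain, a reference chosen after the data were seen, MRX-2843 tumor was higher for 30 of the 44 genes (median 1.21), where 11.4% of all genes were higher (median of all genes 0.011). Cenpe, Prc1, Nusap1, Pttg1 and Sgo1 passed only against vehicle naive brain, at 1.53, 0.75, 1.11, 1.98 and 2.53. Cdc25b, Spc25, Incenp and Hmmr passed only against MRX-2843 naive brain, with values of 0.27, 0.53, -0.044 and 0.62 against vehicle naive brain. Top2a was 3.81, Pbk 3.30, Cdk1 3.22 and Mki67 2.22 above vehicle naive brain. Aurka, Birc5, Ccnb2, Mad2l1, Ttk, Spc24, Cenpk, Knl1, Plk1 and Bub3 passed against neither.

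Markers of other cells moved with the tumor comparisons, and the share of tumor tissue in the MRX-2843 tumor libraries was not tested. Of 5 markers of ependymal cells, for which ependymoma is named, 2 rose and 1 fell in vehicle tumor (median 0.23). Their summed level went from 4.55 to 5.48 CPM in vehicle naive brain to 29.8 to 30.2 in vehicle tumor, of which Rarres2 alone held 26.6 and 27.1. Foxj1, the transcription factor of motile cilia, was at 2.24 and 2.49 CPM in vehicle and 5.58 and 3.97 in MRX-2843 naive brain, then 2.65 and 2.90 in vehicle and 8.97 and 8.35 in MRX-2843 tumor. Tmem212 and Ccdc153 were also highest in MRX-2843 tumor (2.13 and 1.35 CPM for Tmem212, 3.24 and 3.19 for Ccdc153). Against MRX-2843 naive brain, though, 1 of the 5 markers was higher and 4 did not pass. Between the naive groups, 3 of the 5 were higher with MRX-2843. Of 10 neuron markers all fell in vehicle tumor, where their summed level was 583 to 601 CPM, and MRX-2843 tumor was at 6151 to 6157, with none at 0 in any group. Between the tumors, 9 of the 10 were higher with MRX-2843 and 1 (Rbfox3) was lower. Of 6 microglia markers all rose in vehicle tumor, from 223 to 224 CPM to 1710 to 1753, and were at 299.8 to 299.97 in MRX-2843 tumor. Of 6 fibroblast and mural markers 5 rose in vehicle tumor, and their summed level was 9815 to 9916 CPM there and 143 to 168 in the other groups. The collagen genes Col1a1 (5512 and 5534 CPM), Col1a2 (2312 and 2349) and Col3a1 (1743 and 1761) made up most of it, while the mural gene Rgs5 was at 111 and 121 CPM in vehicle tumor and 95.1 and 91.3 in vehicle naive brain, and Acta2 did not pass. Between MRX-2843 tumor and MRX-2843 naive brain, 6 of 10 neuroblast markers were higher and 2 lower (summed level 145 to 149 CPM in naive brain and 180 to 182 in tumor, none at 0), and 4 of 6 oligodendrocyte precursor markers were higher (270.3 to 281 and 386 to 411 CPM). In that comparison 12.4% of all genes were higher. So were 8 of 8 oligodendrocyte, 5 of 6 microglia and 4 of 6 astrocyte markers, with 1 astrocyte marker lower. Of 10 neuron markers 2 were higher and 4 lower, and of 6 fibroblast and mural markers 2 and 3. In vehicle tumor against vehicle naive brain, 5 of 6 oligodendrocyte precursor markers rose and 1 fell (244 to 251 CPM in naive brain and 1008 to 1028 in tumor). Of 10 neuroblast markers 4 rose and 6 fell there, where 29.3% of all genes were higher and 30.8% lower. Neuroblasts and oligodendrocyte precursors are the main dividing cells of adult mouse brain. Their part in the 29 higher mitotic genes was not tested.

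The interaction term asks whether the treatment difference was the same in tumor and in naive brain. For 35 of the 44 genes it was lower in tumor and for 2 higher (Anln and Cdc25b), where 25.3 and 26.3% of all genes were. The median interaction was -2.11 over the 44 genes and 0.02 over all genes. Mki67 (-3.13 ± 0.27, adjusted p = 1.4e-07), Cdk1 (-3.08 ± 0.59, adjusted p = 0.00043) and Foxm1 (-2.98 ± 0.27, adjusted p = 2.1e-07) passed, and Top2a did not (-1.31 ± 0.62, adjusted p = 0.093). Cdk1 lost its call without MRX-2843 naive brain library 2 (-1.26), and Top2a passed without vehicle naive brain library 2 (-2.33).

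Other genes of the division machinery were taken from 6 lists. Of 8 condensin genes, which compact chromosomes, 6 rose and 2 fell in vehicle tumor (median 2.17). Smc4 and Ncaph, of the ATPase core and condensin I, rose by 3.66 ± 0.13 and 3.96 ± 0.19. The 2 that fell, Ncaph2 (-0.47 ± 0.07) and Ncapd3 (-0.36 ± 0.09), are subunits of condensin II, and both were higher in MRX-2843 than in vehicle tumor. Ncapg2, also of condensin II, rose (2.20 ± 0.19). Of 10 cohesin genes, which hold sister chromatids together, 8 rose and 1 fell (median 0.80), with Smc1a at 1.06 ± 0.07 and Pds5b at -0.48 ± 0.08. Among 34 other centromere and kinetochore genes 27 rose and 2 fell (median 1.76), and 27 were lower in MRX-2843 than in vehicle tumor (median -1.37). Zwint, which recruits the ROD-ZW10-Zwilch complex to kinetochores, fell by 3.0 on the log2 scale and Cenpt by 0.40. The 16 subunits and partners of the anaphase-promoting complex had 9 higher, 2 lower (Anapc5 at -0.43 ± 0.05 and Fzr1 at -0.53 ± 0.07) and a median of 0.26. The 14 genes of the DREAM and MMB complexes and E2F factors, which control transcription of cell cycle genes, had 11 higher and 3 lower (median 0.94), with E2f8 at 6.34 ± 0.39 and Rbbp4 at 1.10 ± 0.07 among the higher and Lin37 (-0.71 ± 0.11), Lin52 (-0.51 ± 0.12) and E2f1 (-0.38 ± 0.14) the lower. Of 13 genes of mitotic entry, inhibition and exit 10 rose and 3 fell (median 1.37). The CDK inhibitor gene Cdkn1c rose by 7.10 ± 0.12, and Arpp19 and Ensa, which encode inhibitors of the phosphatase PP2A, fell (-1.96 ± 0.07 and -1.36 ± 0.05), as did the PP2A subunit gene Ppp2r2a (-0.33 ± 0.09).

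The same lists were compared in the treated mice, where 12.4% of all genes were higher and 11.9% lower. Against MRX-2843 naive brain, 4 of the 34 other centromere and kinetochore genes were higher and 2 lower, 5 of 8 condensin genes higher and 1 lower, 6 of 10 cohesin genes higher and 1 lower, and 2 of 14 transcriptional regulators higher. The shares higher among the other centromere and kinetochore genes and the regulators are near that of all genes. Of the anaphase-promoting complex none was higher and 3 of 16 were lower. Of the mitotic entry list 5 of 13 were higher. The medians of the 6 lists lay between -0.19 and 0.40, beside 1.56 for the 44 genes.

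Promoter sequences of the 44 genes were also looked at. Genes of G2 and mitosis are known to carry a cell cycle homology region (CHR), TTTGAA, bound by the DREAM and MMB complexes, often with CCAAT boxes bound by NF-Y. The 44 genes were picked by symbol from this class, so a high share of these motifs describes the list and not these counts. RefSeq promoter windows on GRCm38.p6, from 250 bases before the gene start to 50 after it, were found for 36 of the 44 genes. Windows are given of Top2a and Cdk1, which had the largest rises in vehicle tumor, of the marker Mki67, and of the 3 genes that did not rise. They follow 5′ to 3′ on the strand of the gene, with matches to TTTGAA and CCAAT on either strand in capitals.
Top2a, chr11:99024140-99024439, minus strand: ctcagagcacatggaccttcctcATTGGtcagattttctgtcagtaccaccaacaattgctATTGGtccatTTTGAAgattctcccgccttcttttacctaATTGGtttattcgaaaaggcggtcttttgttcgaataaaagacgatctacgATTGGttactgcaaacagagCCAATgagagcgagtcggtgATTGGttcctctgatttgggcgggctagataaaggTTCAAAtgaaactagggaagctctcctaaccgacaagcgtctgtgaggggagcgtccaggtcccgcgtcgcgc
Cdk1, chr10:69352863-69353162, minus strand: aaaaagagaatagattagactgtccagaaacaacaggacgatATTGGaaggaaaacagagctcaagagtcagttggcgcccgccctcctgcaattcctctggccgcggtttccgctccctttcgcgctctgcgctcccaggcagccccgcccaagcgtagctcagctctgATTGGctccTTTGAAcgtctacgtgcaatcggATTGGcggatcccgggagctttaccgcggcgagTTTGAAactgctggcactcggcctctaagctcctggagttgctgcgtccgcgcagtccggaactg
Mki67, chr7:135716330-135716629, minus strand: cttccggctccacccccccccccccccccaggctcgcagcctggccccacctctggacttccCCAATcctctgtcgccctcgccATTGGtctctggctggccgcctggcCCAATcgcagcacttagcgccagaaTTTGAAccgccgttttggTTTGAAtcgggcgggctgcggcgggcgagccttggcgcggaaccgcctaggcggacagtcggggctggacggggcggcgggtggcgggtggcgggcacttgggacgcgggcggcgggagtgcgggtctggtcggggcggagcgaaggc
Anln, chr9:22389157-22389456, minus strand: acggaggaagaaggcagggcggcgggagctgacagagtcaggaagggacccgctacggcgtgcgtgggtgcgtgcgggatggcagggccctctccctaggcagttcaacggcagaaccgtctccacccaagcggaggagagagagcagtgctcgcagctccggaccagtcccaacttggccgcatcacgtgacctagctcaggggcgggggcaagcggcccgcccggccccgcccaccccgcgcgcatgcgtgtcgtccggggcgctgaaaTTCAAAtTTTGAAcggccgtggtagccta
Cdc25b, chr2:131186698-131186997, plus strand: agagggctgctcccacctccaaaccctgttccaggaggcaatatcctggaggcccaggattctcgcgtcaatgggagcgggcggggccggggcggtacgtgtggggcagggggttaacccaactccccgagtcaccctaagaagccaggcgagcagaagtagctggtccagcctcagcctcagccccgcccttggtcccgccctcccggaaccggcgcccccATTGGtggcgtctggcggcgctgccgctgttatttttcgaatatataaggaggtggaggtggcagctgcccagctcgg
Bub3, chr7:131560120-131560419, plus strand: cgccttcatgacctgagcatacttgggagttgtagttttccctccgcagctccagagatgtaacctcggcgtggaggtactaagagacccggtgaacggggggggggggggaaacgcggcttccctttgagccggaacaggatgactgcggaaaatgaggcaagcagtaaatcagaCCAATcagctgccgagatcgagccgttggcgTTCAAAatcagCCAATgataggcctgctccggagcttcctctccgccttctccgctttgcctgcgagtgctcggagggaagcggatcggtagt

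Top2a held 2 CHR matches and 6 CCAAT boxes, and Cdk1 and Mki67 each held 2 and 3. Sgo1, also among the 3 largest rises but not printed, held 1 CCAAT box and no match to TTTGAA. Anln held 2 CHR matches and no CCAAT box, Cdc25b 1 CCAAT box and no match to TTTGAA, and Bub3 1 CHR match and 2 CCAAT boxes. Other spellings of the CHR were not searched. Of the 36 genes, 23 (63.9%) had TTTGAA in a window and 27 (75.0%) had CCAAT, against 20.2 and 41.1% of the 27025 genes in the table. Both motifs were in windows of 20 genes (55.6%, against 7.97%). The E2F motif TTCCCGC was in a window of 1 gene, Cenpk, and in 5.29% of all genes. In the first window of each gene, 23 of 29 CHR matches began within 50 bases of the gene start, and 22 of 64 CCAAT boxes did. For 31 of 41 windows the bases just after that start were found in a GENCODE M21 transcript of the gene. The starts of the other windows were not borne out by this check. In 2 of 41 windows, of Cdca8 and Ube2c, 2 matches shared letters. Genes with TTTGAA had a median log2 fold change in vehicle tumor of 4.31 (23 genes, from -0.92 to 7.02), and those without 3.41 (13 genes, from -0.27 to 6.70). A match describes letters in a window and not binding.

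**Figure D4:**
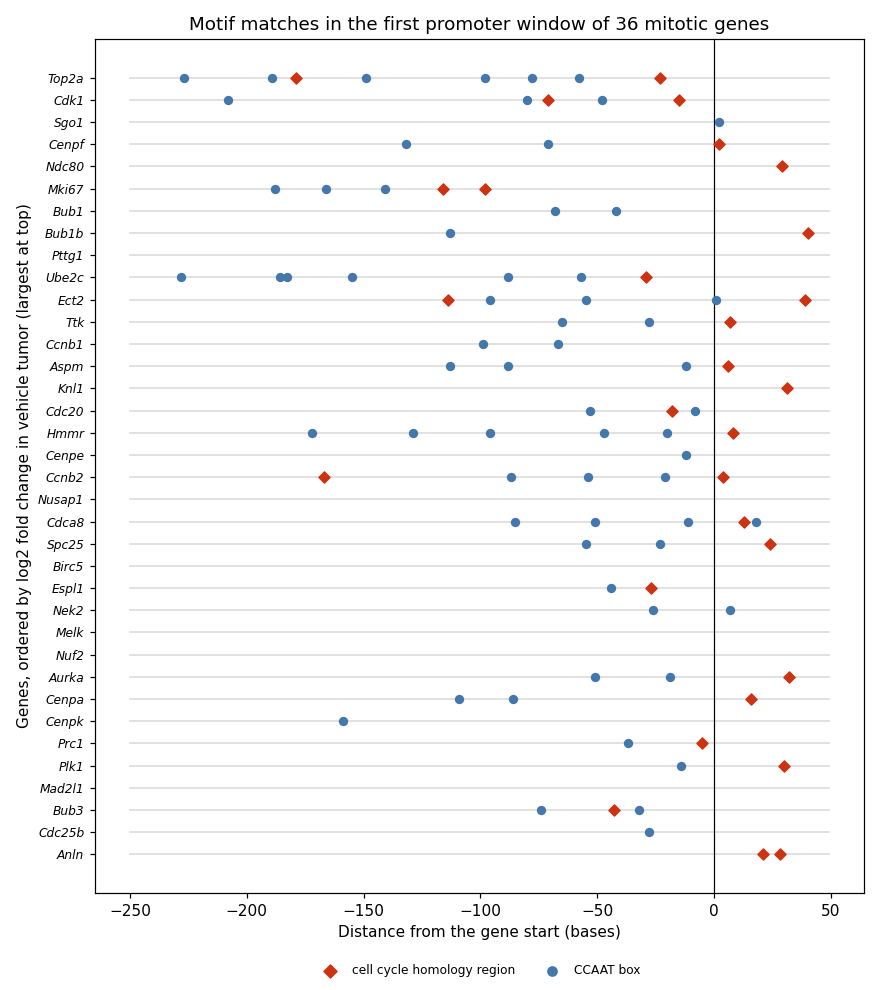
Position of each match to the cell cycle homology region (diamonds) and CCAAT box (circles) in the first promoter window of 36 genes, as distance in bases from the gene start, with genes ordered by log2 fold change in vehicle tumor. Most diamonds lie near the start, 23 of 29 within 50 bases, and circles mostly upstream, with a median of -67.5.

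For 13 of the 44 genes exons overlap those of another gene in GENCODE M21, and reads there can be lost or misassigned, since the strand setting of the counting is not stated. The overlap took 22.8% of exon length in Ube2c, 12.7% in Cdc25c, 12.5% in Ccna2, 11.1% in Prc1 and 7.09% or less in the others. The table also lists a processed copy of Ccnb1 (Ccnb1-ps) and of Ccnb2 (Ccnb2-ps), which could take reads from the cyclin genes.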

How the data were processed

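RNA from tumor or naive brain was sequenced in 8 libraries, 2 in each of 4 groups, assigned by the sample titles. The authors deposited raw read counts per gene. Per the submitters' processing notes, the tools were Subread, featureCounts, SAMtools and STAR 2.7.7a and the builds hg38 and mm10, with no roles named; annotation, strand and pair settings are not given in the sources used here. Of counts from 1 to 99, 74.5 to 78.6% were even numbers, so a count may not be 1 fragment. Identifiers were matched to GENCODE M21 without version (94.1%; all 44 genes).

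The test was that of edgeR 4.0.16, run in R 4.3.3 (TMM, filterByExpr with a minimum count of 10, quasi-likelihood test, 4 group means, 4 residual degrees of freedom, shared spread, Benjamini-Hochberg adjustment over 24356 genes). SE was obtained by dividing the size of the log2 fold change by the root of the F statistic. The variance between duplicates was 9.21 to 18.9 times that of counting noise (chi-square per degree of freedom), if 1 count is 1 fragment. This does not show whether duplicates came from separate mice, and each was counted as a library. The 44 genes, all lists, motifs and tests were chosen with earlier results of these data known. Any of the 44 may be named. Library values are given for the 2 most abundant per length in each role, the 3 largest and smallest fold changes in 3 comparisons, and genes not called or against the majority there. Of other lists, up to 2 genes with the smallest adjusted p and those against the majority are named. Library values of Ccna2, Ccnb1, Cenpa and individual cell type markers were given outside these rules. Alternatives were DESeq2 1.42.0, other scalings and filters, a replicate block, and leaving out each library, where the lone library of a group is assumed to vary like the others. Python 3.11.15, pandas 2.3.3 and matplotlib 3.10.9 made tables and plots.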

Additional observations from a re-analysis of the deposited data

Results flagged for a closer look

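The treatment difference in tumor was set against that in naive brain by the interaction term of edgeR's quasi-likelihood test. At an adjusted p under 0.05 it was lower in tumor for 35 of the 44 genes and higher for 2. Of all genes tested, 25.3% were lower and 26.3% higher. Among the 44, the lowest values were those of Ttk (-5.30 ± 1.05), Sgo1 (-5.02 ± 1.03) and Pttg1 (-4.19 ± 0.44). The naive libraries held 6 to 98 counts of Ttk, 0 to 28 of Sgo1 and 24 to 72 of Pttg1. The interaction value of Sgo1 changed sign without MRX-2843 naive brain library 2 (1.44). The library left in that group had 0 counts of Sgo1, so this fitted value is no bound. That of Ttk was -7.56 without MRX-2843 tumor library 2, -6.64 without vehicle naive brain library 2, -4.61 without vehicle naive brain library 1 and -4.46 without MRX-2843 tumor library 1. The 2 higher values were those of Cdc25b (1.29 ± 0.16) and Anln (2.64 ± 0.13).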

How the results depend on the processing

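Between vehicle tumor and vehicle naive brain, 2 genes were lower with a filter of CPM at least 1 in 2 libraries, with only the groups compared, or without MRX-2843 tumor library 1, and 0 with an absolute log2 fold change of at least 1. With that fold limit, 1 gene was higher in MRX-2843 than in vehicle tumor and 1 higher in MRX-2843 naive brain than in its vehicle counterpart. Over all genes it left 4643 higher in vehicle tumor than in naive brain, 4464 lower in MRX-2843 than in vehicle tumor, 772 higher and 591 lower in MRX-2843 tumor than in its naive brain, and 687 higher and 702 lower between the naive groups. Fitting only the naive groups gave 0 higher and 5 lower of the 44 genes. When each library was left out in turn, the 44 genes had 41 to 42 higher and 1 to 2 lower in vehicle tumor, 41 to 42 lower and 2 higher in MRX-2843 against vehicle tumor, 26 to 31 higher and 0 to 1 lower against MRX-2843 naive brain, 0 to 4 higher and 8 to 12 lower between the naive groups, and 30 to 36 lower interactions. Genes higher between the naive groups numbered 1529 to 2476 over all genes in these fits. Incenp in MRX-2843 tumor changed sign against vehicle naive brain (-0.044). The interaction of Sgo1 ran from -5.73 to 1.44 as each library was left out. The value of 1.44 was fitted with an MRX-2843 naive brain library of 0 counts. The cause of these changes was not tested. Library totals moved the median of all genes to 0.21 in vehicle tumor against naive brain and to -0.18 between the tumors, and the split of all genes to 8684 higher and 6192 lower in the first and 6412 higher and 8647 lower in the second. With a replicate block, 41 genes were higher in vehicle tumor, 42 lower between the tumors, and 32 higher in MRX-2843 tumor than in its naive brain, where it added Nusap1 (adjusted p = 0.033), Cenpe (0.03) and Sgo1 (0.044). Between the naive groups the block added Ttk (0.03) and lost Plk1 (0.058). Same-numbered libraries did not deviate together (correlations from -0.00667 to 0.0176 over 6 pairs of groups). If duplicates are technical, this cannot show whether tumor and naive libraries came from the same mouse. Counts of a few reads in naive brain limit fold changes against it. Among the genes concerned are Sgo1, Cdc25c, Bub1, Bub1b, Ttk, Cenpk, Cdk1, Ndc80, Hmmr, Top2a and Pbk.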
